A study of Rattus norvegicus with 6 samples.

Results

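Liver RNA of rats homozygous for the lyp mutation was set against liver RNA of rats with the normal gene, on 6 Affymetrix rat genome arrays. The 4 BBDR.lyp/lyp arrays comprised 2 from rats aged 50 days, before hyperglycemia (pre-hyperglycemia), and 2 from rats aged 55 days, shortly after its onset (post-hyperglycemia). The 2 BBDR.+/+ arrays came from rats of 55 days that carry the normal gene and stay normoglycemic, and the labels put each age within 5 days. A probe set was taken as a genotype difference when all 4 BBDR.lyp/lyp arrays lay above both BBDR.+/+ arrays or all 4 lay below both. Of 31042 probe sets, 57 control probe sets not counted, 3889 lay above (12.5% of all) and 3117 lay below (10%), so 7006 did not overlap (22.6%). If the 6 arrays were exchangeable, each direction would hold a share of 0.0667. Values are deposited log2 signals of single arrays or their means, and a genotype difference is the mean of the pre- and post-hyperglycemia means minus the BBDR.+/+ mean.

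Both strains share the BBDR (BioBreeding Diabetes Resistant) background, and the labels name no compound given to any group. The lyp allele was brought in with the iddm1 region of the diabetes prone BBDP rat, so genes near the mutation can also be of donor origin. Every BBDR.lyp/lyp rat of this colony becomes diabetic according to the methods. The pre-hyperglycemia rats were 5 days younger than the BBDR.+/+ rats, and age and genotype cannot be told apart for those arrays. They were also 5 days younger than the post-hyperglycemia rats. In the post- minus pre-hyperglycemia difference (post minus pre), age and glycemia therefore cannot be told apart. The labels record a fast before collection while the methods record free access to food, and the labels and methods name different labelling kits. Neither source shows that replicates were separate animals, and the methods read as repeat liver sampling of the same rats, so p-values measure the spread between these samples.

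The lyp mutation is a frameshift in Gimap5, a GTPase of the immunity-associated family needed for the survival of peripheral T cells. Rats that lack it are lymphopenic and develop autoimmune destruction of the pancreatic beta cells. The liver holds hepatocytes together with Kupffer cells (its resident macrophages), sinusoidal endothelium, stellate cells and passing leukocytes. It also takes up gut-derived bacterial products, responds to cytokines with acute phase proteins, and makes fatty acids, cholesterol and glucose under the control of insulin, growth hormone and the circadian clock.

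Higher in BBDR.lyp/lyp liver were the neutrophil chemokine Cxcl1 (by 2.06), the calprotectin subunits S100a9 (1.56) and S100a8 (1.25), and 15 of 36 cell cycle genes, with 0 of these lower. Of all genes, each read from its brightest probe set, limma called 1.57% higher and 0.654% lower. Lower were Gimap4 (-0.82) and Gimap5 (-0.69), the desaturase Scd (-0.98) and the clock repressor Nr1d1 (-0.99). limma, fitted to all probe sets with a Benjamini-Hochberg adjusted p under 0.05, passed 368 probe sets as higher in BBDR.lyp/lyp (1.19%) and 583 as lower (1.88%). It read the same values as the overlap rule, so the counts are not independent of each other. Both criteria were met by 352 higher and 529 lower probe sets, and another 16 higher and 54 lower ones passed limma although their arrays overlapped. Of the probe sets that did not overlap, 3537 higher and 2588 lower ones did not pass. An exact permutation test of 4 arrays against 2 cannot go below p = 0.0667. These limma counts rested on both BBDR.+/+ arrays, because 1 probe set was higher and 0 were lower in BBDR.lyp/lyp without BBDR.+/+ replicate 2 (1546 and 1598 before adjustment). Without BBDR.+/+ replicate 1 the counts were 61 and 172, without pre-hyperglycemia replicate 1 they were 167 and 353, a fit with 2 genotype groups passed 8 and 11, and a fit with an intensity trend passed 733 and 839. With a covariate for RNA end bias, described with the lower probe sets, limma passed 0 in either direction (1191 higher and 1224 lower with an unadjusted p under 0.05). The slope of that covariate came from replicates within groups alone, so this loss of calls is no measure of end bias.

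The differences were mostly small. Among all probe sets that did not overlap the median was 0.231 where higher and -0.23 where lower. In 3685 of the higher and 2705 of the lower ones the size was under 0.5. The probe sets that met both criteria had a median difference of 0.51 where higher and of -0.60 where lower, and 10 of the higher and 35 of the lower ones exceeded 1 on the log2 scale. Near the edge of the rule, Tardbp lay inside by 0.0024 and Gpd1 lay outside by 0.0018. All arrays gave Alb, the liver's albumin gene, a signal near 14.6, the array medians ran from 5.903 to 5.938, and the lowest correlation between arrays was 0.99. For 97 probe sets of 95 genes that passed and are named by a fixed rule, the direction was the same with any array left out, while 1 (Cxcl1) passed in all 6 such fits. Another 34 passed in 5, all but that without BBDR.+/+ replicate 2, among them S100a9, S100a8, Serpina7, Igf2bp3, Mki67, Stmn1, Klf2, Lbp, C5, Gimap4, Gpnmb, Scd, Nr1d1, Acadsb, Mug1 and Ghr. Of the 97, 36 passed without BBDR.+/+ replicate 1, 65 without pre-hyperglycemia replicate 1, 79 without its replicate 2, 77 without post-hyperglycemia replicate 1 and 79 without its replicate 2. Klrg1, C1qa, Alas2, Crat, Pdia4, Zfp467 and the brightest probe set of Dusp1 passed in 0 of the 6 fits. Without BBDR.+/+ replicate 2 the differences of the 97 were 0.595 to 1.28 times those with all arrays. For probe sets that did not overlap, the unchanged direction with an array left out was fixed by the overlap rule and tests nothing. Where a gene is said below not to pass without BBDR.+/+ replicate 2, leaving out other arrays can have removed its call too.

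**Figure D1:**
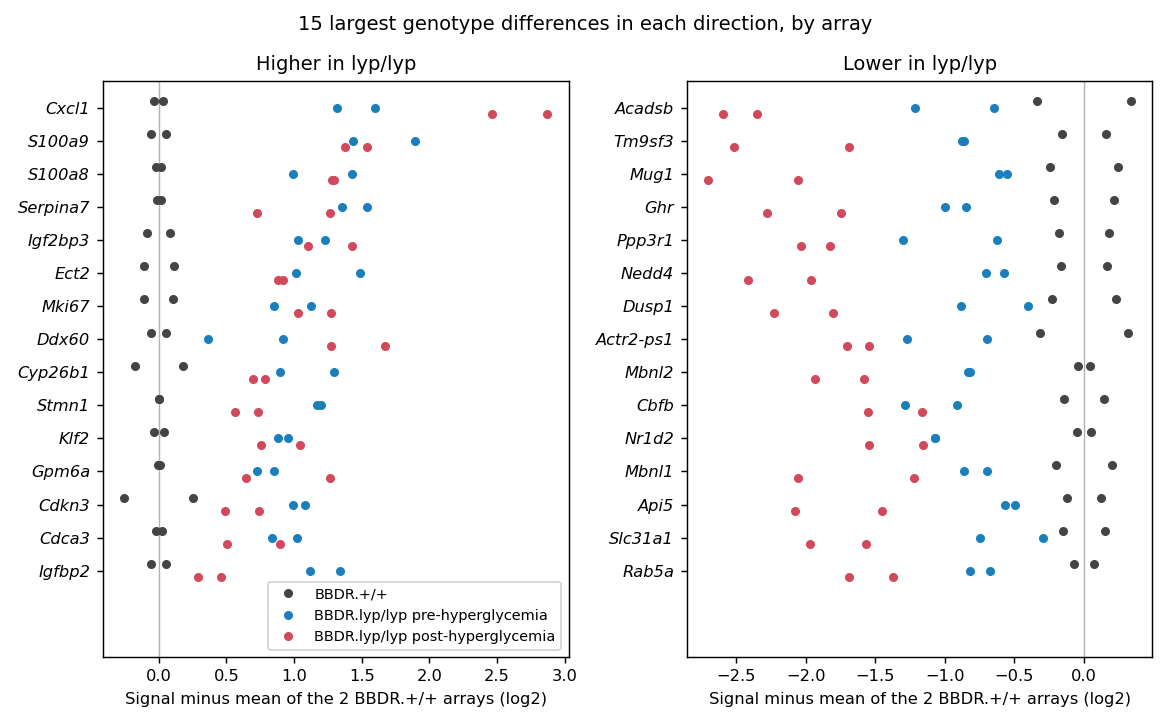
Signal of each array minus the mean of the 2 BBDR.+/+ arrays (log2, horizontal axis) for the 15 probe sets with the largest higher (left) and the 15 with the largest lower (right) genotype difference among those with 1 gene symbol that met both criteria. Points are single arrays, coloured for BBDR.+/+ and for the 2 BBDR.lyp/lyp groups. Cxcl1 has the largest higher difference at 2.06 and Acadsb the largest lower difference at -1.70.

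Gimap5, the mutated gene, gave 6.43 and 6.45 in BBDR.+/+, 5.52 and 5.85 in pre-hyperglycemia and 5.71 and 5.91 in post-hyperglycemia arrays. All 4 BBDR.lyp/lyp arrays were lower, by 0.52 or more, and the difference was -0.69 ± 0.11 (SE, adjusted p = 0.0103, limma). It did not pass without BBDR.+/+ replicate 1 (-0.71) or replicate 2 (-0.68), and the end-bias covariate moved it to -0.37 (adjusted p = 0.789). Where its probes lie relative to the frameshift was not examined, so the Gimap5 signal is no direct check of genotype. In this bulk tissue fewer cells of a type and less RNA per cell cannot be told apart. Gimap4, the neighbouring GTPase of the same family, gave 6.58 and 6.54, then 5.39 and 5.58, then 5.93 and 6.09 in the same order of groups. It was lower by more than Gimap5 (-0.82 ± 0.10, adjusted p = 0.00303, limma), the pre-hyperglycemia arrays were the lowest, and post minus pre was 0.52 (adjusted p = 0.0413). With BBDR.+/+ replicate 2 left out, Gimap4 stood at -0.84 and did not pass. The other members on the array did not pass, with differences of 0.12 for Gimap1, -0.11 for Gimap7 and 0.04 for Gimap6.

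The chromosome around Gimap5 was examined over 60 genes on each side in the gene order. There 39 genes had 59 probe sets, and 7 probe sets met both criteria (11.9%, against 2.84% of all probe sets and 3.93% of the 1222 on the rest of that chromosome). They belonged to Gimap5, Gimap4, Igf2bp3, Gpnmb, Zfp467, Zfp212 and Pals2. Igf2bp3, an RNA-binding protein of fetal tissue that binds the Igf2 transcript, gave 8.34 and 8.51 in BBDR.+/+, 9.65 and 9.45 before and 9.53 and 9.85 after hyperglycemia. In this probe set the BBDR.lyp/lyp arrays did not separate by glycemia, and the difference was 1.20 ± 0.12 (adjusted p = 0.00136, limma). Its other probe sets differed by 0.27 and 0.30 without passing. They lay above BBDR.+/+ before hyperglycemia (by 0.70 and 0.71) and below it after (-0.15 and -0.11), and their post minus pre passed (-0.85, adjusted p = 0.0101, and -0.82, adjusted p = 0.00679), unlike that of the leading probe set (0.14). Gpnmb, a transmembrane glycoprotein of macrophages, gave 8.27 and 8.23, then 7.46 and 7.48, then 7.52 and 7.63, a difference of -0.72 ± 0.09 (adjusted p = 0.00325, limma). Post minus pre of Gpnmb was 0.11. Zfp467 (0.48) and Zfp212 (-0.48) encode zinc finger proteins, and Pals2 (-0.72) a scaffold protein whose probe set was lower mainly after hyperglycemia (post minus pre -1.01). The Zfp212 and Pals2 values are those of dimmer probe sets, and the brightest ones stood at 0.11 and -0.14 without passing, with another Pals2 probe set at 0.25. Of these, Igf2bp3 (1.28), Gpnmb (-0.74), Zfp467 (0.34), Zfp212 (-0.37) and Pals2 (-0.70) did not pass without BBDR.+/+ replicate 2.

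**Figure D2:**
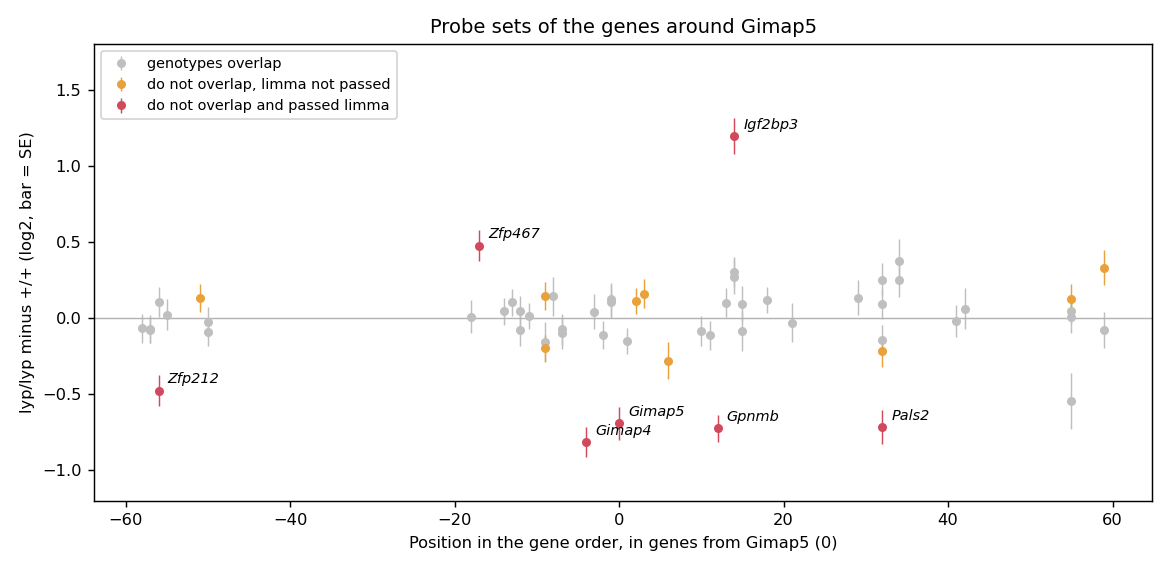
Genotype difference (log2, vertical axis, bars are SE) of each probe set of the genes around Gimap5, placed by the number of genes from Gimap5 (horizontal axis). Colours separate probe sets whose genotypes overlap, those that do not overlap without passing limma, and the 7 that met both criteria, among them Igf2bp3 at 1.20 and Gimap4 at -0.82.

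The largest difference in the liver was that of Cxcl1, a chemokine that attracts neutrophils. It gave 6.61 and 6.68 in BBDR.+/+, 7.97 and 8.25 before and 9.11 and 9.52 after hyperglycemia. The 3 groups formed 3 separate levels, and the genotype difference was 2.06 ± 0.13 (adjusted p = 0.000209, limma). Post minus pre was 1.21 (adjusted p = 0.00361), so that the signal was high before hyperglycemia and higher after it. Cxcl1 was the single probe set that passed without BBDR.+/+ replicate 2 (2.097, adjusted p = 0.0336).

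S100a9 and S100a8 encode the subunits of calprotectin, a calcium-binding protein abundant in neutrophils and monocytes. S100a9 gave 5.58 and 5.47 in BBDR.+/+, 7.42 and 6.97 before and 6.90 and 7.06 after hyperglycemia. S100a8 gave 3.73 and 3.77, then 5.18 and 4.74, then 5.05 and 5.03. For both, the 4 BBDR.lyp/lyp arrays lay together and far above BBDR.+/+, with differences of 1.56 ± 0.13 (adjusted p = 0.000841, limma) and 1.25 ± 0.12 (adjusted p = 0.00136), and post minus pre was -0.21 and 0.08. In the fit that lacked BBDR.+/+ replicate 2, they stood at 1.51 and 1.27 and their adjusted p was 0.055. The list of 17 neutrophil and monocyte markers did not move with them: besides these genes it held 1 that passed, Cybb, the catalytic subunit of the phagocyte NADPH oxidase (0.50, adjusted p = 0.031), and its median difference was 0.03. Over the brightest probe set of each of 14217 genes, 1.57% passed as higher, 0.654% as lower, 17.4% did not overlap as higher and 7.71% as lower, and the median was 0.03. The list's 4 higher and 1 lower members that did not overlap were 23.5% and 5.88%. Of 32 chemokines and receptors, Cxcl1 passed as higher and Cxcl9, a ligand of the lymphocyte chemokine receptor Cxcr3, as lower (-0.45, adjusted p = 0.021), and the list's median was 0.03. Ccl2, a monocyte attractant, was at 0.43 without passing (adjusted p = 0.0603). When BBDR.+/+ replicate 2 was omitted, Cybb (0.38) and Cxcl9 (-0.45) did not pass.

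Bacterial lipopolysaccharide and cytokines reach their target genes through the transcription factor NF-kB, which also induces its own brakes. Of 28 genes of this list 3 passed as higher and 0 as lower, and 10 (35.7%) lay above without overlap and 1 below (median 0.13). The shares over all genes were 1.57% and 0.654% passing, and 17.4% and 7.71% without overlap. Lbp, which carries lipopolysaccharide to its receptor, gave 10.31 and 10.43 in BBDR.+/+, 11.17 and 11.34 before and 11.04 and 11.15 after hyperglycemia (0.80 ± 0.10, adjusted p = 0.00303, limma). Its post minus pre was small beside that (-0.16). Nfkbiz, an IkB protein that acts in the nucleus (0.71), and Bcl3, a nuclear partner of NF-kB (0.50), also rose, and Tnfaip3, which shuts the pathway off, was at 0.49 without passing (adjusted p = 0.058). Without BBDR.+/+ replicate 2 the differences of Lbp, Nfkbiz and Bcl3 were 0.86, 0.73 and 0.46 and did not pass. Of 22 acute phase genes Lbp and A2m (alpha-2-macroglobulin) passed as higher, and Crp (-0.44) and Hamp (-0.33) lay below without passing. A2m rose mostly before hyperglycemia, from 7.31 and 7.16 to 7.94 and 8.09, and stood at 7.42 and 7.43 after it (0.49 over both, 0.41 and not passing without BBDR.+/+ replicate 2). Of 30 complement and coagulation genes C5, a terminal complement component, rose (0.67, adjusted p = 0.00465) and Mug1, an alpha-macroglobulin protease inhibitor, fell. C5 stood at 0.67 without BBDR.+/+ replicate 2 and did not pass.

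Interferons induce a set of antiviral genes through an element in their promoters. Of 35 interferon response genes 18 (51.4%) lay above without overlap and 2 below, 6 passed as higher and 2 as lower, and the median was 0.21. Among all genes 17.4% lay above and 7.71% below, and 1.57% passed as higher and 0.654% as lower. Ddx60, a helicase of antiviral sensing, gave 4.83 and 4.72 in BBDR.+/+, 5.69 and 5.14 before and 6.05 and 6.45 after hyperglycemia (1.06 ± 0.15, adjusted p = 0.00646, limma). Like Cxcl1 it was higher after hyperglycemia than before (post minus pre 0.83, adjusted p = 0.0408). Oas1a, a sensor of double-stranded RNA, gave 6.67 and 6.59, then 7.22 and 7.39, then 7.31 and 7.14, and did not separate by glycemia (0.63 ± 0.10, adjusted p = 0.00838, limma). Mx2, a dynamin-like GTPase, rose by 0.59, and Usp18, which removes the ubiquitin-like protein Isg15, rose by 0.55. With BBDR.+/+ replicate 2 left out, the 4 genes were at 1.003, 0.59, 0.66 and 0.59 and did not pass.

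The promoters of Cxcl1 and of the interferon genes Ddx60 and Oas1a are shown over the 250 bases before the annotated start in RefSeq (GRCr8). Cxcl1 belongs to the chemokine list and is not a member of the NF-kB list. In Cxcl1 the capitals mark GGGA and TTCC with 2 bases of any kind between them, a form of the NF-kB site, and in Ddx60 and Oas1a they mark GAAA and GAAA with 2 bases between, the core of the interferon element, each searched on both strands and with overlapping matches joined.
Cxcl1, chr14:17479322-17479571, minus strand: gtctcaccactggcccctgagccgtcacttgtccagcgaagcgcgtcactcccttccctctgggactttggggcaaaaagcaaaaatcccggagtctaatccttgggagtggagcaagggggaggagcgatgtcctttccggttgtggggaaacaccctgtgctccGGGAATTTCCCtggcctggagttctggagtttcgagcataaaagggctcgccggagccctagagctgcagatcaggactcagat
Ddx60, chr16:33208840-33209089, minus strand: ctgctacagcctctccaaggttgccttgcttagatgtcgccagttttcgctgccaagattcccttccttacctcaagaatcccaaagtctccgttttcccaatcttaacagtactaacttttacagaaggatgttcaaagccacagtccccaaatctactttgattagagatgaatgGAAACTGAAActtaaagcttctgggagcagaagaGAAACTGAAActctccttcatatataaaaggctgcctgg
Oas1a, chr12:41330216-41330465, plus strand: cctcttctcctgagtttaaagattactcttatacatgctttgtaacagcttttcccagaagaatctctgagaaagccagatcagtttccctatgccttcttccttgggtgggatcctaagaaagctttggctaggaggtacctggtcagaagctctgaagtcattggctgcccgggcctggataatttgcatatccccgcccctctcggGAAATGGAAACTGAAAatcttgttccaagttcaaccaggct
The NF-kB letters were in 4 of the 23 promoters found for the 28 list members (17.4%), against 1.08% of all 33469 promoters of that length. Of the 2 members that passed limma and had a promoter, 1 held them. The interferon core was in 18 of 28 found for the 35 interferon genes (64.3%), against 3.41%, and in 4 of the 6 that passed limma and had a promoter. The share over a whole list follows from its choice of genes and does not depend on genotype. A match describes the letters and does not show that a factor was bound.

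Markers of the cells a liver sample can hold were counted in the same way, beside 17.4% of all genes above without overlap and 7.71% below. By limma 1.57% of all genes passed as higher and 0.654% as lower. Of 16 Kupffer cell markers 10 (62.5%) lay above without overlap and 0 below, with a median of 0.29, and their mean over the list was 9.54 to 9.59 in BBDR.+/+ and 9.79 to 9.86 in BBDR.lyp/lyp arrays. Of these 3 passed, namely Cd163, the haemoglobin scavenger receptor (0.50), C1qa, a chain of complement C1q (0.38), and Aif1, a macrophage calcium-binding protein (0.41). Cd5l, a macrophage-secreted protein, was at 0.37 without passing (adjusted p = 0.054). C1qa gave 10.80 and 10.86 in BBDR.+/+ and 11.17, 11.21, 11.23 and 11.23 in BBDR.lyp/lyp, with a post minus pre of 0.04. In the fit that lacked BBDR.+/+ replicate 2, Cd163 (0.38), C1qa (0.41) and Aif1 (0.39) did not pass, and the median of the list was 0.29. The part of these markers in the interferon and NF-kB results was not tested.

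T cell markers lay low on these arrays, with a list mean of 5.17 to 5.20 in BBDR.+/+ and 5.06 to 5.12 in BBDR.lyp/lyp. Of 25, 7 (28.0%) lay below without overlap and 1 above, against 7.71% and 17.4% of all genes, and the median was -0.07. Cd3e, a chain of the T cell receptor complex, gave 6.01 and 6.07, then 5.32 and 5.69, then 5.54 and 5.67, and was the single T cell marker that fell (-0.48, adjusted p = 0.0472, limma; -0.45 and not passing without BBDR.+/+ replicate 2). With any array left out Cd3e ran from -0.58 to -0.39, and the end-bias covariate moved it to -0.10. Cd3d (-0.48, adjusted p = 0.069) and Cd8b (-0.35, adjusted p = 0.0719) lay below without passing, and Icos, a costimulatory receptor, lay above (0.46, adjusted p = 0.0627). Of 18 natural killer and cytotoxic genes Klrg1 (0.40) and Gzma (0.59) rose, an inhibitory receptor and a granule protease. They were at 0.40 and 0.35 without BBDR.+/+ replicate 2 and did not pass, and Gzma turned to -0.11 with the end-bias covariate. None of 16 B and plasma cell genes passed limma, while 3 lay above and 2 below without overlap.

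The lists that follow stand beside 17.4% of all genes above without overlap and 7.71% below, with 1.57% passing as higher and 0.654% as lower. Of 15 mast cell genes 6 (40.0%) lay above and 1 below, and 2 passed. Mcpt1, a granule protease, gave 5.84 and 5.72 in BBDR.+/+, 6.06 and 6.15 before and 7.12 and 6.71 after hyperglycemia (0.73, adjusted p = 0.0104, limma), and was the higher after hyperglycemia (post minus pre 0.81, adjusted p = 0.0148). Hdc, the enzyme that makes histamine, was highest before hyperglycemia (7.57 and 7.56, against 6.53 and 6.90 in BBDR.+/+) and differed by 0.66. When BBDR.+/+ replicate 2 was omitted, they were at 0.67 and 0.85 and did not pass. Of 18 endothelial markers 7 (38.9%) lay above and 0 below (median 0.17, or 0.09 without BBDR.+/+ replicate 2), with Pecam1 passing (0.45). Of 22 stellate cell and matrix genes 11 (50.0%) lay above and 2 below (median 0.17), with Lum, a collagen-binding proteoglycan, passing (0.46). Without BBDR.+/+ replicate 2 Pecam1 (0.44) and Lum (0.39) did not pass. In the remaining lists, 1 of 11 cholangiocyte genes fell (Aqp1, a water channel, -0.59), 1 of 12 erythroid genes rose (Alas2, the erythroid haem synthesis enzyme, 0.39), and none of 15 MHC class II and dendritic or 14 pancreatic acinar genes passed. Aqp1 (-0.52) and Alas2 (0.39) did not pass without BBDR.+/+ replicate 2.

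Cell cycle genes formed the list with the most members that passed. Of 36, 15 rose and 0 fell, 24 (66.7%) lay above without overlap and 1 (Cdk2) below, and 34 had a positive difference. For all genes the shares were 1.57% and 0.654% by limma, and 17.4% and 7.71% without overlap. The mean over the list was 6.11 to 6.12 in BBDR.+/+ and 6.36 to 6.60 in BBDR.lyp/lyp arrays, and the median difference was 0.32 (0.31 to 0.37 with any array left out). Mki67, the antigen Ki-67 of dividing cells, gave 4.65 and 4.43 in BBDR.+/+, 5.67 and 5.40 before and 5.57 and 5.81 after hyperglycemia (1.07 ± 0.12, adjusted p = 0.00206, limma). The BBDR.lyp/lyp arrays of the 2 times overlapped (post minus pre 0.16, adjusted p = 0.655). Cdca3, a mitotic entry factor, gave 6.55 and 6.59, then 7.59 and 7.41, then 7.47 and 7.07 (0.82). Cdk1, the mitotic kinase, gave 5.84 and 6.14, then 6.90 and 7.01, then 6.35 and 6.30, so that it was highest before hyperglycemia (0.65, post minus pre -0.63, adjusted p = 0.026). Aurkb, a kinase of chromosome segregation, rose by 0.63, Mcm6, a subunit of the replicative helicase, by 0.65, and Cdkn3, a phosphatase of Cdk1 and Cdk2, by 0.83.

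The list as a whole was farther from BBDR.+/+ before hyperglycemia (median 0.47, with 14 passing as higher, against 0.584% of all genes) than after it (median 0.24, with 5 passing, against 2.29%). These comparisons share the BBDR.+/+ arrays, and post minus pre itself passed for 2 of the 36, both lower. Pcna (0.12), Plk1 (0.00) and Ccnd1 (0.01), a replication clamp, a mitotic kinase and a cyclin that answers growth factors, did not pass. Outside the list Ect2, an exchange factor of cytokinesis (1.07 ± 0.13, adjusted p = 0.00325, limma), Stmn1, which destabilises microtubules (0.92, post minus pre -0.54), and Spc25, a kinetochore protein (0.43, post minus pre -0.62), also rose. None of these genes passed without BBDR.+/+ replicate 2, where Mki67 was at 0.96, Cdca3 at 0.84, Cdk1 at 0.80, Aurkb at 0.57, Mcm6 at 0.61, Cdkn3 at 0.57, Ect2 at 1.19, Stmn1 at 0.92 and Spc25 at 0.39. Which cells of the liver carried these transcripts was not tested.

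Cell cycle promoters often share a CHR element (TTTGAA) and CCAAT boxes, which bind the complexes that restrict transcription to dividing cells. The 3 leading list members with a promoter entry and the next that passed, Prc1, a cross-linker of spindle microtubules (0.55), are shown over the 250 bases before the start (RefSeq, GRCr8), with both motifs in capitals, searched on both strands. In Mki67 a CHR element and a reversed CCAAT box share a base.
Mki67, chr1:199952594-199952843, minus strand: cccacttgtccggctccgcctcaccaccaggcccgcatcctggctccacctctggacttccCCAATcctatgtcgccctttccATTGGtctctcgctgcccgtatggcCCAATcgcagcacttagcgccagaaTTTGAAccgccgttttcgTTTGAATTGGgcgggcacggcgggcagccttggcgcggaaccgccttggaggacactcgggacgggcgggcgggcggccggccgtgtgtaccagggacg
Cdca3, chr4:159320953-159321202, plus strand: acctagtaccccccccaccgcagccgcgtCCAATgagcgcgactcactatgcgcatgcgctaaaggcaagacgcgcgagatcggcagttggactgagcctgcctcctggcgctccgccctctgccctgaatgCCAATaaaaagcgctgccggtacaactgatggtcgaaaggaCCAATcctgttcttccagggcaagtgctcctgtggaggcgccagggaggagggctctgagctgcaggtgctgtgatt
Mcm6, chr13:42404353-42404602, minus strand: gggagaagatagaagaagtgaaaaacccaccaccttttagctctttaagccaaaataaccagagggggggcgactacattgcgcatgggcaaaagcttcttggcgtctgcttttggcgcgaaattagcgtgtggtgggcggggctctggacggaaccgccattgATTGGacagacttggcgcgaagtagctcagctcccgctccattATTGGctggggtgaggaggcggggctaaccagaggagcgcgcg
Prc1, chr1:143659231-143659480, plus strand: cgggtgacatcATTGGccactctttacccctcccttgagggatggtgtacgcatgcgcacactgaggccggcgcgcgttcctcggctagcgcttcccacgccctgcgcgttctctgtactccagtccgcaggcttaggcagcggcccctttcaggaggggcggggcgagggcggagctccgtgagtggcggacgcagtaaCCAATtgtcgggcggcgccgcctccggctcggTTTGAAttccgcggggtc
TTTGAA or its reverse complement was in 9 of the 29 promoters found for the 36 genes (31.0%), against 16.2% of all 33469, and CCAAT or its reverse complement was in 22 (75.9%), against 34.0%. These shares over the whole list follow from its choice of genes and do not depend on genotype. Among the 11 genes that passed limma and had a promoter, 7 held the CHR letters and 10 the CCAAT letters. Cdca3 and Mcm6 hold CCAAT boxes and no CHR letters in this window.

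**Figure D3:**
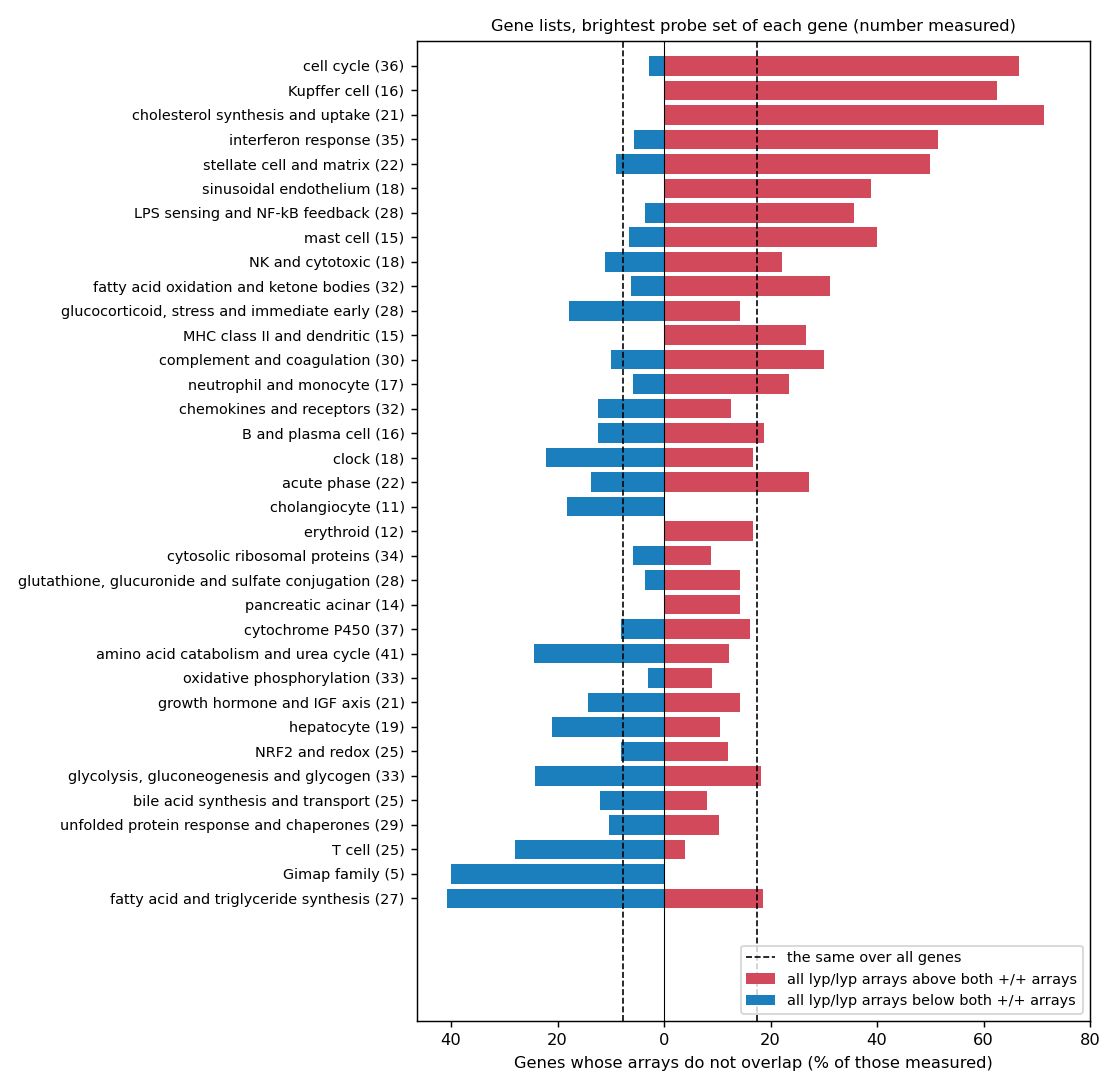
Share of the measured genes of each list (percent, horizontal axis) whose 4 BBDR.lyp/lyp arrays all lay above (right) or all below (left) both BBDR.+/+ arrays, with the number measured in brackets and each gene read from its brightest probe set. Dashed lines mark the same shares over all genes, 17.4% and 7.71%. Cholesterol synthesis (71.4%), cell cycle (66.7%) and Kupffer cell (62.5%) genes have the longest bars to the right.

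Of 27 fatty acid and triglyceride synthesis genes 4 fell and 1 rose, and 11 (40.7%) lay below and 5 above without overlap (median -0.17, or -0.08 without BBDR.+/+ replicate 2). By comparison, 0.654% of all genes fell and 1.57% rose by limma, and 7.71% lay below and 17.4% above without overlap. Scd, the stearoyl-CoA desaturase that makes monounsaturated fatty acids, gave 12.71 and 12.77 in BBDR.+/+, 11.36 and 11.59 before and 11.96 and 12.11 after hyperglycemia (-0.98 ± 0.10, adjusted p = 0.0015, limma). It was lowest before hyperglycemia (post minus pre 0.56, adjusted p = 0.0359). Elovl6, the elongase that feeds it, showed the same order (10.31 and 10.06, then 9.35 and 9.28, then 9.92 and 9.91; -0.57). Pnpla3, a lipid droplet enzyme, fell by 0.53 without separating by glycemia. Lpin2, a phosphatidate phosphatase, rose from 7.16 and 7.06 to 8.11 and 8.04 before and 7.69 and 7.69 after hyperglycemia (0.77, adjusted p = 0.00265). With BBDR.+/+ replicate 2 left out, Scd (-0.95), Elovl6 (-0.70), Pnpla3 (-0.53) and Lpin2 (0.72) did not pass.

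Cholesterol genes lay the other way, beside 17.4% of all genes above without overlap and 7.71% below. Of 21 cholesterol synthesis and uptake genes 15 (71.4%) lay above without overlap and 0 below, 20 had a positive difference, and the median was 0.26 (0.22 to 0.27 with any array left out). Of these 2 passed, Pmvk, the phosphomevalonate kinase (0.46), and Cyp51, the lanosterol demethylase (0.41), which were at 0.41 and 0.37 and did not pass without BBDR.+/+ replicate 2. Cyp51 gave 11.65 and 11.56 in BBDR.+/+, 12.12 and 12.10 before and 11.95 and 11.90 after hyperglycemia. Mvd (0.36, adjusted p = 0.0558) and Acat2 (0.34, adjusted p = 0.0822), also of the mevalonate pathway, lay above without passing. Of 32 fatty acid oxidation and ketone body genes 3 rose and 2 fell, beside 1.57% and 0.654% of all genes by limma. Without overlap 10 lay above and 2 below, and the median was 0.09. The larger fall was that of Acadsb (-1.70), described with the lower probe sets. Vnn1, a pantetheinase, rose by 0.79 and Crat, which makes acylcarnitines, by 0.39, while Acot12, an acetyl-CoA thioesterase, fell by 0.44, nearly all after hyperglycemia (post minus pre -0.68). In the fit that lacked BBDR.+/+ replicate 2, Vnn1 (0.75), Crat (0.41) and Acot12 (-0.46) did not pass. None of 25 bile acid genes passed limma.

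Of 41 amino acid catabolism and urea cycle genes 4 fell (9.76%, against 0.654% of all genes) and 0 rose, 10 (24.4%) lay below and 5 above without overlap, and the median was -0.01. Without overlap, 7.71% of all genes lay below and 17.4% above. Sds, serine dehydratase, gave 8.79 and 8.75 in BBDR.+/+, 8.11 and 8.06 before and 8.05 and 8.18 after hyperglycemia (-0.67 ± 0.09, adjusted p = 0.00476, limma), with no separation by glycemia. Bhmt, which remethylates homocysteine (-0.46), Oat, ornithine aminotransferase (-0.43), and Tat, tyrosine aminotransferase (-0.65), also fell. When BBDR.+/+ replicate 2 was omitted, Sds (-0.69), Bhmt (-0.46), Oat (-0.41) and Tat (-0.52) did not pass, and Tat turned to 0.03 with the end-bias covariate. Of 33 glycolysis, gluconeogenesis and glycogen genes 8 (24.2%) lay below and 6 above without overlap and 1 rose, Igfbp1, an insulin-repressed binding protein of insulin-like growth factors (0.43, or 0.40 and not passing without BBDR.+/+ replicate 2). The remaining hepatocyte lists held few calls. Of 19 hepatocyte markers Tat alone passed, and no gene passed among 25 NRF2 and redox, 33 oxidative phosphorylation or 34 ribosomal protein genes.

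In the growth hormone and insulin-like growth factor list of 21 genes, 3 rose and 2 fell. Among all genes 1.57% rose and 0.654% fell by limma, and 17.4% lay above and 7.71% below without overlap. In the list 3 lay above and 3 below without overlap, and the median was -0.02. Igf2bp3, described with the genes around Gimap5, was among those that rose. Up to 4 genes a list are named by p, so not every passing gene is. Igf1, the circulating growth factor made by the liver, gave 13.01 ± 0.01 (SD, n = 2) in BBDR.+/+, 12.62 and 12.64 before and 12.49 and 12.60 after hyperglycemia (-0.42 ± 0.09, adjusted p = 0.0302, limma). Cish, a growth hormone-induced inhibitor of its receptor's signal, fell by 0.44, and post minus pre of the pair was -0.08 and -0.07. Igfbp2, another binding protein, gave 9.56 and 9.67, then 10.73 and 10.96, then 9.90 and 10.08, and was therefore highest before hyperglycemia (0.80, post minus pre -0.85, adjusted p = 0.00642). Outside this list Serpina7, the thyroxine-binding globulin, gave 7.54 and 7.51, then 9.06 and 8.88, then 8.25 and 8.78 (1.22 ± 0.14, adjusted p = 0.00254, limma). Without BBDR.+/+ replicate 2 Igf1 (-0.43), Cish (-0.41), Igfbp2 (0.86) and Serpina7 (1.21) did not pass.

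The clock list held 2 genes that rose and 3 that fell of 18. Among all genes 1.57% rose and 0.654% fell by limma, and 17.4% lay above and 7.71% below without overlap. In the clock list 3 lay above and 4 below without overlap, and the median was 0.02, so the list as a whole did not shift. Nr1d1, the repressor Rev-erb alpha, gave 8.47 and 8.48 in BBDR.+/+, 6.85 and 7.01 before and 7.86 and 8.22 after hyperglycemia (-0.99 ± 0.11, adjusted p = 0.00254, limma). The fall was larger before hyperglycemia (post minus pre 1.11, adjusted p = 0.00328). Its paralog Nr1d2 fell in both of its leading probe sets (-1.21 and -0.67), while Cry1, a repressor of the clock's activators (0.51), and Npas2, an activator (0.47), rose. With BBDR.+/+ replicate 2 left out, Nr1d1 (-0.99), Nr1d2 (-1.16 and -0.71), Cry1 (0.46) and Npas2 (0.45) did not pass. Neither source gives the time of day at which each liver was taken, and its part was not tested. Of 28 glucocorticoid, stress and immediate early genes 2 rose and 3 fell by limma, and 4 lay above and 5 below without overlap (median 0.06). Not every passing gene of the list is named. Gdf15 fell although its arrays overlapped (-0.62, or -0.53 without BBDR.+/+ replicate 2). Klf4, a zinc finger factor, rose (0.65), Gadd45a, a growth arrest protein, fell (-0.43), and the brightest probe set of Dusp1, a MAP kinase phosphatase, fell (-0.39). At 0.57, -0.40 and -0.44, these did not pass without BBDR.+/+ replicate 2. Klf2, a shear-induced factor of endothelium and lymphocytes, gave 7.50 and 7.43, then 8.35 and 8.42, then 8.22 and 8.51 in its brightest probe set (0.91 ± 0.10, adjusted p = 0.00254, limma; 0.87 and not passing without BBDR.+/+ replicate 2), while its other probe sets differed by -0.16 to 0.61. Gpm6a, a membrane glycoprotein known from neurons, rose by 0.87 (0.865 and not passing with that array left out).

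Of 37 cytochrome P450 genes Cyp3a2 (0.62) and Cyp1a1 (0.44) rose and Cyp3a9 fell. Among all genes 1.57% rose and 0.654% fell by limma, and 17.4% lay above and 7.71% below without overlap. Of the P450 genes 16.2% lay above and 8.11% below without overlap (median -0.006), close to the shares of all genes. Cyp3a9 gave 11.17 and 11.11 in BBDR.+/+, 10.03 and 9.86 before and 10.99 and 10.97 after hyperglycemia (-0.68 ± 0.09, adjusted p = 0.005, limma). Most of that difference lay in the pre-hyperglycemia arrays (post minus pre 1.04, adjusted p = 0.00182). Cyp26b1, which breaks down retinoic acid, rose from 6.50 and 6.14 to 7.61 and 7.21 before and 7.11 and 7.02 after hyperglycemia (0.92). Of 28 conjugation genes Sult1c3, a sulfotransferase, rose (0.67), and of 29 unfolded protein response and chaperone genes Pdia4, a disulfide isomerase, and Hsph1, a chaperone, fell (-0.41 and -0.46). Without overlap 14.3% of the conjugation genes lay above and 3.57% below, and of the chaperone list 10.3% lay above and 10.3% below. Hsph1 overlapped between genotypes, with a post minus pre of 0.85. In the fit that lacked BBDR.+/+ replicate 2, Cyp3a2 (0.68), Cyp1a1 (0.41), Cyp3a9 (-0.71), Cyp26b1 (0.74), Sult1c3 (0.48), Pdia4 (-0.50) and Hsph1 (-0.43) did not pass.

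The lower probe sets with the largest differences were of another kind. Acadsb, a short branched-chain acyl-CoA dehydrogenase, gave 6.76 and 7.44 in BBDR.+/+, 5.89 and 6.45 before and 4.50 and 4.75 after hyperglycemia (-1.70 ± 0.19, adjusted p = 0.00254, limma). Mug1 gave 11.47 and 11.97, then 11.11 and 11.17, then 9.02 and 9.66 (-1.48 ± 0.17, adjusted p = 0.00301). In both the post-hyperglycemia arrays were far below the others, with a post minus pre of -1.54 and -1.80. Ghr, the growth hormone receptor, gave 9.65 and 10.08, then 8.87 and 9.02, then 7.59 and 8.12 in its leading probe set (-1.47), while its brightest probe set differed by -0.14. The same held for Tm9sf3 (-1.49 against 0.00), Ppp3r1, the regulatory subunit of calcineurin (-1.45 against -0.23), Nedd4, a ubiquitin ligase (-1.41 against 0.25), Mbnl2 and Mbnl1, splicing factors (-1.29 against -0.21 and -1.21 against 0.19), Cbfb (-1.23 against -0.18), a partner of the Runx factors, Api5 (-1.15 against 0.02), Slc31a1, the copper importer (-1.15 against -0.04), and Rab5a, a GTPase of early endosomes (-1.14 against -0.14). The single probe set of the pseudogene Actr2-ps1 was at -1.30. When BBDR.+/+ replicate 2 was omitted, Acadsb (-1.36), Mug1 (-1.24), Ghr (-1.25) and Nedd4 (-1.25) did not pass, nor did the others.

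Across the lower probe sets that met both criteria and carried 1 symbol, 338 of 425 were not the brightest of their gene, against 44 of 260 higher ones. For the 314 genes concerned among the lower, the passing probe set had a median of -0.60 and the brightest of the same gene -0.04, 13 of the brightest passed too and 123 had the opposite sign. For the 40 genes concerned among the higher, the medians were 0.52 and 0.21. When each gene was held to its brightest probe set, 216 genes were higher and 87 lower by both criteria. Control probe sets at the ends of 2 transcripts were also read. The 3' minus 5' difference of beta-actin was 1.36 and 1.12 in BBDR.+/+, 1.51 and 1.32 before and 2.11 and 2.04 after hyperglycemia, and that of GAPDH was 0.72 and 0.44, then 0.67 and 0.55, then 1.37 and 1.33. A larger value means less signal from the 5' end, and the post-hyperglycemia arrays stood apart from the other 4. With that difference as a covariate 0 probe sets passed, and sizes shrank by over 1.5 times in 21 of the 43 lower and 12 of the 54 higher named probe sets that had passed (median of the value with the covariate over that without it, 0.689 and 0.942). Among the lower, Acadsb went to -0.39, Mug1 to -0.67 and Ghr to -0.69, while Mbnl2 stayed at -1.29, Cbfb stood at -1.05 and Gpnmb at -0.73. Among the higher, Cyp26b1 went to 0.17, Cdkn3 to 0.20, Sult1c3 to 0.05 and Cybb to 0.13, while Cxcl1 stood at 2.46, S100a9 at 1.13 and Mki67 at 0.67. The part of RNA end bias in the lower probe sets was not tested.

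**Figure D4:**
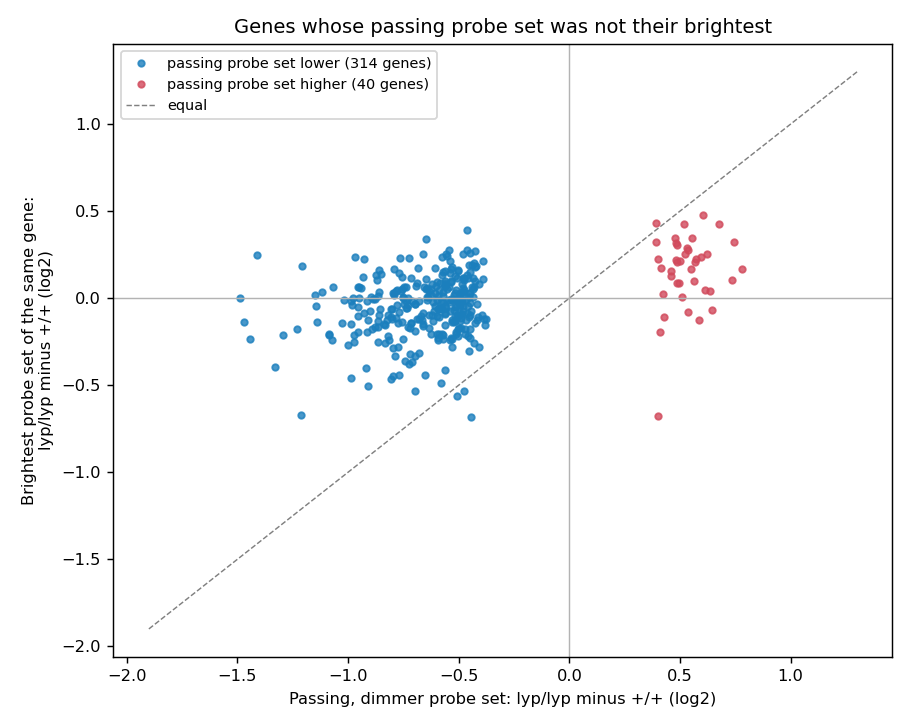
Genotype difference (log2) of the brightest probe set of a gene (vertical axis) against that of its dimmer probe set that met both criteria (horizontal axis), for 314 genes with a lower and 40 genes with a higher passing probe set. The dashed line marks equal values. The lower points lie around the zero line of the vertical axis, with a median of -0.04 for the brightest probe sets against -0.60 for the passing ones.

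Whether these genotype differences were the same before and after hyperglycemia was read from post minus pre, in which glycemia and age cannot be told apart. Post minus pre comes from the same arrays and variances that chose the probe sets, so the shares below describe the chosen sets and are no independent test. Over all probe sets limma passed 0.718% as higher and 1.46% as lower after hyperglycemia. Among the 352 higher probe sets that met both criteria 15 passed as higher and 13 as lower, 4.26% and 3.69%. Among the 529 lower ones 11 passed as higher (2.08%) and 137 as lower (25.9%), and in 467 the post-hyperglycemia mean was below the pre-hyperglycemia mean. Among all probe sets that did not overlap, the share lower after hyperglycemia was 0.411% of the 3889 higher and 4.62% of the 3117 lower ones. Against the shared BBDR.+/+ arrays, the lower probe sets that passed were farther from BBDR.+/+ after hyperglycemia (median -0.80) than before (-0.42), and the higher ones nearly as far at both times (0.54 and 0.48). Post-hyperglycemia replicate 1 was the array farthest from BBDR.+/+ in 379 of the 529. Of all 7006 that did not overlap, 160 passed as lower after hyperglycemia, which became 44 without post-hyperglycemia replicate 1 and 35 without pre-hyperglycemia replicate 2.

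Of the 97 named probe sets that passed, post minus pre passed for 34, and these fell into 4 patterns. For the others, such as S100a9, S100a8, Mki67, Gpnmb, Sds and Klf2, it did not pass. Part of the 97 were named for a large post minus pre difference in these same 4 classes, so 34 of 97 is no rate. Over all probe sets post minus pre passed as higher in 0.718% and as lower in 1.46%. Cxcl1, Ddx60, Mcpt1, Bcl6, a transcriptional repressor (0.44, post minus pre 0.80), and Rbm12b (0.53, post minus pre 0.70) were higher in BBDR.lyp/lyp and higher still after hyperglycemia. Igfbp2, Cdk1, Spc25, A2m, Stmn1, Vnn1 and Pdzrn3 (0.52, post minus pre -0.58) were higher and nearer to BBDR.+/+ after it. Nr1d1, Cyp3a9, Scd, Elovl6, Gimap4 and Lifr, the receptor of leukaemia inhibitory factor (-0.44, post minus pre 0.80), were lower and nearer to BBDR.+/+ after hyperglycemia. Acadsb, Mug1, Nedd4, Ceacam1, a cell adhesion protein of the hepatocyte membrane (-1.08, post minus pre -1.38), and the dimmer probe set of Dusp1 (-1.33, post minus pre -1.37) were lower and farther. Bcl6 gave 6.43 and 6.46, then 6.49 and 6.47, then 7.35 and 7.22, so its pre-hyperglycemia arrays lay just above BBDR.+/+ and nearly all of the difference came after hyperglycemia. Lifr gave 8.72 and 8.67, then 7.90 and 7.81, then 8.66 and 8.64, with nearly all of its difference before it. Without BBDR.+/+ replicate 2 Bcl6 (0.46), Rbm12b (0.59), Pdzrn3 (0.49), Lifr (-0.47), Ceacam1 (-0.92) and Dusp1 (-1.10) did not pass.

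**Figure D5:**
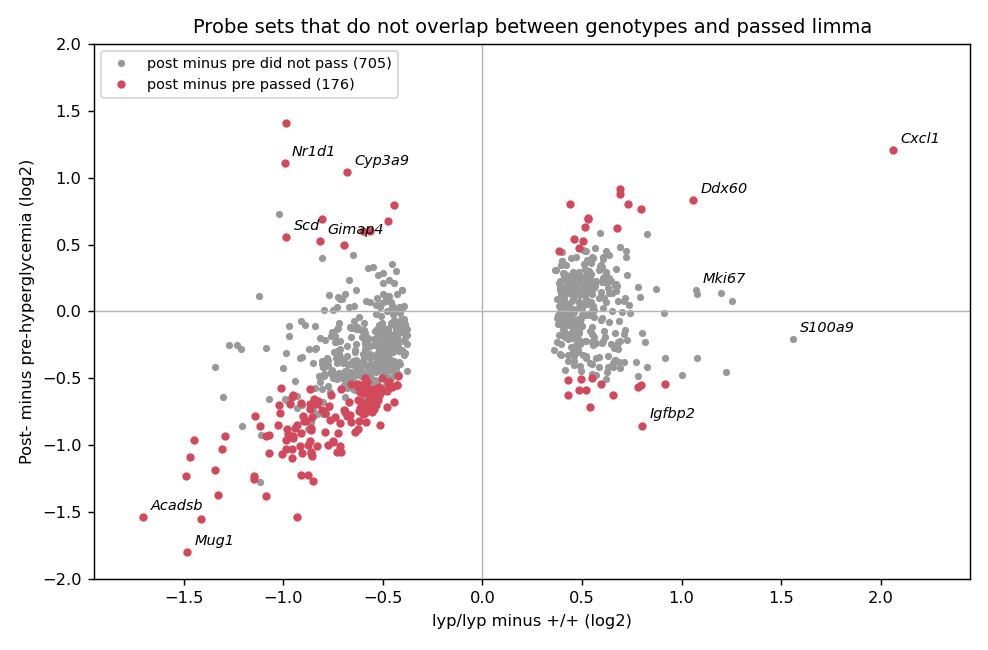
Post- minus pre-hyperglycemia difference (log2, vertical axis) against the genotype difference (log2, horizontal axis) of the probe sets that met both criteria. Red points passed limma for post minus pre and grey points did not. Cxcl1 lies at 2.06 and 1.21, Nr1d1 at -0.99 and 1.11, and Mug1 at -1.48 and -1.80.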

How the data were processed

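Liver RNA of 6 samples was hybridised to an Affymetrix rat array. The authors read the arrays with Affymetrix Expression Console, normalized them in Partek and deposited log2 values, 1 per probe set and array. The normalization algorithm and the software versions were not given in the sources used here. Members and gene lists were chosen with earlier results of these data known. limma 3.58.1 (R 4.3.3) was fitted with 3 group means to 31042 probe sets (3 residual and 7.7 prior degrees of freedom), and the genotype contrast was the mean of both BBDR.lyp/lyp groups minus BBDR.+/+, with Benjamini-Hochberg adjustment at 0.05 and no filter. Symbols (20826 probe sets with 1, 436 with several, 9780 with none) came from the array annotation. The brightest probe set stood for a gene in 35 lists. Named were Gimap5, the 15 largest differences in each direction, up to 4 genes a list by p, the 5 largest post minus pre differences in each class, and passing genes next to Gimap5. Genes chosen after their values were seen are Prc1, Gimap6, Pcna, Plk1, Ccnd1, Cdk2, Tardbp and Gpd1. The step was tested on simulated data. Alternatives were other normalizations, signal filters, models, tests, thresholds and leaving out each array. 6 arrays limit the precision. Other steps ran in Python 3.11.15 (numpy 2.4.6, pandas 2.3.3, matplotlib 3.10.9).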

Additional observations from a re-analysis of the deposited data

Results flagged for a closer look

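Among 97 named probe sets that passed, post minus pre also passed limma for 34 (Benjamini-Hochberg adjusted p under 0.05), 13 higher and 21 lower after hyperglycemia. For these 34 the genotype difference was not equal at both times. Part of the 97 were named for a large post minus pre difference, so 34 of 97 is no rate. Over all probe sets 0.718% passed as higher and 1.46% as lower. Among the higher genes post minus pre was 1.21 for Cxcl1, 0.83 for Ddx60, 0.81 for Mcpt1, 0.80 for Bcl6 and 0.70 for Rbm12b. It was -0.85 for Igfbp2, -0.63 for Cdk1, -0.62 for Spc25, -0.59 for A2m, -0.58 for Pdzrn3, -0.55 for Vnn1 and -0.54 for Stmn1. Among the lower genes it was 1.11 for Nr1d1, 1.04 for Cyp3a9, 0.85 for Hsph1, 0.83 for Gdf15, 0.80 for Lifr, 0.60 for Elovl6, 0.56 for Scd and 0.52 for Gimap4. It was -1.80 for Mug1, -1.55 for Nedd4, -1.54 for Acadsb, -1.38 for Ceacam1, -1.37 for Dusp1, -1.25 for Slc31a1, -1.23 for Tm9sf3 and -1.23 for Api5. It was -1.09 for Ghr, -1.01 for Pals2, -0.96 for Ppp3r1, -0.93 for Mbnl2, -0.78 for Rab5a and -0.68 for Acot12. The larger 3' minus 5' control differences and the higher age of the post-hyperglycemia arrays stand beside these values, and their part was not tested.

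In the brightest probe set of Nr1d2, post-hyperglycemia replicate 2 lay apart from the other 3 BBDR.lyp/lyp arrays, with a gap of 0.919 of the range of the 4. Chance flags about 1 in 20 such groups, and 97 were examined.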

How the results depend on the processing

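The limma counts of 368 higher and 583 lower probe sets became 560 and 673 for the 60% of probe sets with the highest mean, and 627 and 459 for the top 30%. A fit with 2 genotype groups gave 8 and 11, an intensity trend 733 and 839, the covariate for the 3' minus 5' difference 0 and 0 (1191 and 1224 unadjusted), and the brightest probe sets alone 268 and 110. The methods' t-test gave 1856 and 1195 unadjusted and 0 and 0 after Benjamini-Hochberg adjustment, and rank product, whose ratios share arrays, gave 3519 and 3084. Thresholds of 0.01 and 0.10 gave 55 and 159, and 774 and 929. Leaving out each array gave 1 to 326 higher and 0 to 629 lower. The pre-hyperglycemia arrays alone, an alternative chosen after seeing the data, gave 130 and 82. Higher probe sets were 38.7% of calls, but 57.7% in the top 30%, 53.3% by rank product, 70.9% in the brightest, 61.3% with pre-hyperglycemia arrays alone and 60.8% by the t-test. Median, quantile and ribosomal protein centring left the counts between 305 and 444 higher and 516 and 599 lower.

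Replicate numbers link no samples in the labels. With a replicate block limma passed 614 and 882, and same-numbered samples deviated with correlations of 0.261, 0.142 and 0.11 between the 3 pairs of groups.

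Probe sets that did not overlap (3889 higher, 3117 lower) numbered 2076 and 861 in the top 30%, 3166 and 1923 in the top 60%, 2478 and 1096 among the brightest, and 6701 and 6529 with the pre-hyperglycemia arrays alone. Leaving out an array, which loosens the rule, gave 4758 to 7810 higher and 3883 to 6682 lower. Post minus pre passed in 26 of them as higher and 160 as lower. These became 43 higher with ribosomal protein centring, 48 higher in the top 30%, 16 and 20 in the brightest, and 8 to 33 and 35 to 194 with an array left out. Among named genes the direction turned for Gzma (-0.105) and Tat (0.027) under the 3' minus 5' covariate. The causes were not tested. Signal near background was not assessed, because detection calls were not used here.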
